A study of Mus musculus with 8 samples.

Results

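The genes described here are 39 genes that carry glucose into skeletal muscle, break it down to lactate, and build or degrade muscle glycogen. They were chosen by name, as a pathway list, and each was read from the probe set of its Entrez gene, 39 of the 21212 probe sets on the arrays. All 39 were found, 38 through the annotation of the array platform and Pfkfb1 through its Entrez number alone. The list was described in 8 steps: 4 genes of uptake, 12 of glycolysis, 3 of lactate, 4 that set the level of the fructose bisphosphates, 2 of the glycerol phosphate shuttle, 7 of glycogen synthesis, 5 of glycogen breakdown and 2 of the glycogen particle.

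The study compared muscle of mice whose hind limbs had been kept off the cage floor for 5 days, a model of disuse atrophy, with muscle of weight bearing mice. All were wild type C57BL/6J females, 7 weeks old and housed one to a cage, and the muscles taken were the gastrocnemius and plantaris, both predominantly fast. Each group had 4 arrays, each from a separate RNA sample labelled as a biological replicate. Values are log2 expression levels made by robust multi-array analysis (RMA), which corrects background, equalises arrays and summarises the probes of a gene, so that a difference of 1 is a doubling. They rank a gene against itself between arrays, and the level of one probe set was not read as an amount of RNA against that of another.

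Muscle takes up glucose through transporters of the GLUT family, the insulin-responsive one of which is moved to the surface when the Rab-controlling proteins TBC1D1 and TBC1D4 are phosphorylated. Hexokinase traps the sugar as glucose 6-phosphate, which either runs down glycolysis to pyruvate and lactate or is stored as glycogen. Glycogen synthase and branching enzyme extend the particle on a glycogenin core, and phosphorylase, switched on by phosphorylase kinase, takes it apart. Fast fibres are rich in the glycolytic enzymes and in glycogen phosphorylase, which rank among the most abundant proteins of this tissue.

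Of the 39 genes 4 were higher in unloaded muscle (Slc2a1, Aldoc, Gyg and Gbe1), 5 were lower (Pgam2, Ldhb, Hk1, Pfkfb1 and Gpd2) and 30 did not pass the test (limma, adjusted p under 0.05 over all 21212 probe sets). The 9 genes that passed are 23.1% of the list, against 23.8% of all probe sets on the arrays, 12.8% higher and 11.0% lower, so the list as a whole held no larger share of changed genes than the arrays did. In 17 of the 39 genes (43.6%) the 4 unloaded values lay entirely above or below the 4 weight bearing values, against 27.5% of all probe sets. The median log2 change of the list was -0.07, and that of all probe sets 0.045. The changes were small, from a fall of 0.56 in Pgam2 to a rise of 0.45 in Aldoc on the log2 scale. With the arrays quantile normalized again, 6 genes were higher and 4 lower, against 22.6% of all probe sets in either direction, and with array medians set to 0, 3 were higher and 6 lower. Leaving out unloaded replicate 2 or weight bearing replicate 1 left 3 genes lower. With the methods' t-test, which called 13.0% of all probe sets, 1 gene was higher (Gyg) and 5 were lower. Among those lower, Eno3 (adjusted p = 0.0204) and Ldha (0.0435) stood in place of Pfkfb1 (0.0833) and Gpd2 (0.112). That name stands here for a t-test with unequal variances and Benjamini-Hochberg adjustment. The study judged its parametric t-test by p-values and q-values, so the calls given here are not its own.

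**Figure D1:**
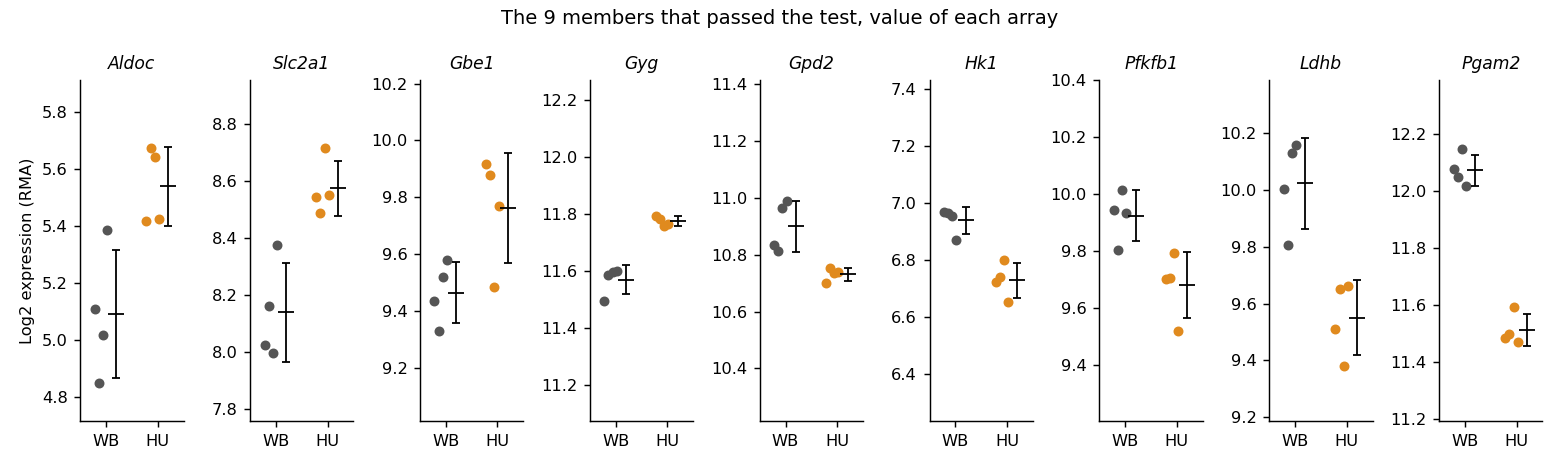
Log2 RMA level of each of the 9 genes that passed the test, with 1 point per array (4 unloaded, HU, and 4 weight bearing, WB) and, beside the points, each group's mean with its SD. The groups are separate in 8 of the 9 genes and overlap in Gbe1, where unloaded replicate 3 (9.49) sits among the weight bearing arrays.

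Pgam2, Gyg and Gbe1 were also among 9 of the 39 genes for which the study listed a peak of Bcl-3, an NF-kB co-activator, at the promoter in unloaded muscle. Of those 9 (Hk2, Pfkl, Aldoa, Pgam2, Gyg, Gbe1, Pygm, Phka1 and Ugp2), 2 were higher, 1 was lower and 6 did not pass, with a median log2 change of 0.03. Of the other 30 genes 2 were higher and 4 lower, with a median of -0.07. The promoters of the 3 listed genes that passed are shown because they carry both measurements, a listed peak and a changed transcript. They run from 250 bases before to 50 bases after the start of the gene in RefSeq (GRCm38.p6), 5′ to 3′ on the gene's strand. The capitals mark every match to the E-box pattern CANNTG, a class of hexamers that includes sites of the myogenic factors. Which factor, if any, binds a marked hexamer was not tested. Pgam2 spans chr11:5803747-5804046 on the minus strand, Gyg chr3:20155067-20155366 on the minus strand and Gbe1 chr16:70313699-70313998 on the plus strand.
Pgam2: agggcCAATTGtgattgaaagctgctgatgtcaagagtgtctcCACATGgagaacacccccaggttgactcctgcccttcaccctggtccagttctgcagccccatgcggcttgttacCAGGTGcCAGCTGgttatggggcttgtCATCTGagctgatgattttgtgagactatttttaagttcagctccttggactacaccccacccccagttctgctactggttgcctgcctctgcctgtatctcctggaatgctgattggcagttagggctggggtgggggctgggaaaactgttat
Gyg: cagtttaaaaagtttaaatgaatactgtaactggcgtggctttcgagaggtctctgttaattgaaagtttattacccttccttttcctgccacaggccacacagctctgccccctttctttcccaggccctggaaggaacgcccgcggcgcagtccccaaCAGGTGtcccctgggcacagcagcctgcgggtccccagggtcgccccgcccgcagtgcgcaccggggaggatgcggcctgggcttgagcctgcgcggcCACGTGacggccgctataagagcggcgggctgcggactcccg
Gbe1: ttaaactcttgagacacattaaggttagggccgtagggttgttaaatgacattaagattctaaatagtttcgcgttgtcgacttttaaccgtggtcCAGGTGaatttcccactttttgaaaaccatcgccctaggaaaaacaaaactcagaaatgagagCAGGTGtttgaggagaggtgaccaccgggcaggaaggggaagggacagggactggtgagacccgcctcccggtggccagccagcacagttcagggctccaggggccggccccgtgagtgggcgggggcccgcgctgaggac
The Pgam2 window held 5 E-boxes, a number reached by 2.1% of the 32851 mouse promoters of that length. The Gyg and Gbe1 windows held 2 each, and 39.6% of all promoters held at least that many. Neither the 10-letter NF-kB consensus, present on one strand or the other in 4.51% of promoters, nor the letters TATAAA, present in 13.6%, occurred in any of the 3 windows, and these are letter matches in a window much shorter than the one in which the study looked for peaks. A promoter was in the table for 37 of the 39 genes.

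The arrays had the defining transcripts of skeletal muscle, with Acta1 and Ckm among the brightest probe sets and no marker of any list at 0. Of 7 such transcripts Des was higher by 0.24, Acta1 and Mb fell by 0.15 and 0.21, and Ckm, Ryr1, Cacna1s and Myog did not pass. In bulk muscle fewer cells of a type and less RNA per cell cannot be told apart. Of 10 fast fibre markers 2 were lower (Myh2 by 0.79 and Mylpf by 0.33 on the log2 scale), and their summed linear level ran from 61300 to 63061 in unloaded and from 66034 to 68661 in weight bearing arrays. Of 10 slow fibre markers 5 were lower (Casq2, Myl2, Myl3, Tnni1 and Tnnt1), with sums of 8838 to 12112 against 12846 to 13672.5. Among 7 fibroblast markers 5 were lower (Col1a1, Col1a2, Col3a1, Lum and Dpt; sums 7432 to 7626 against 10817 to 12378), and among 7 macrophage markers 5 (Adgre1, Csf1r, Mrc1, C1qa and C1qb; 938 to 1147 against 1262 to 1537). Of 7 endothelial markers Kdr and Emcn were lower, with sums of 3107 to 3259 against 3272 to 3748. No fibre type, fibroblast, macrophage or endothelial marker was higher. The sums of 4 erythroid, 6 Schwann or perineurial and 6 adipocyte markers overlapped between the groups and 0 of them passed in limma (1 erythroid marker, Alas2, at an unadjusted p under 0.05, and 0 with the methods' t-test). The part of these shifts in the changes described next was not tested.

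**Figure D2:**
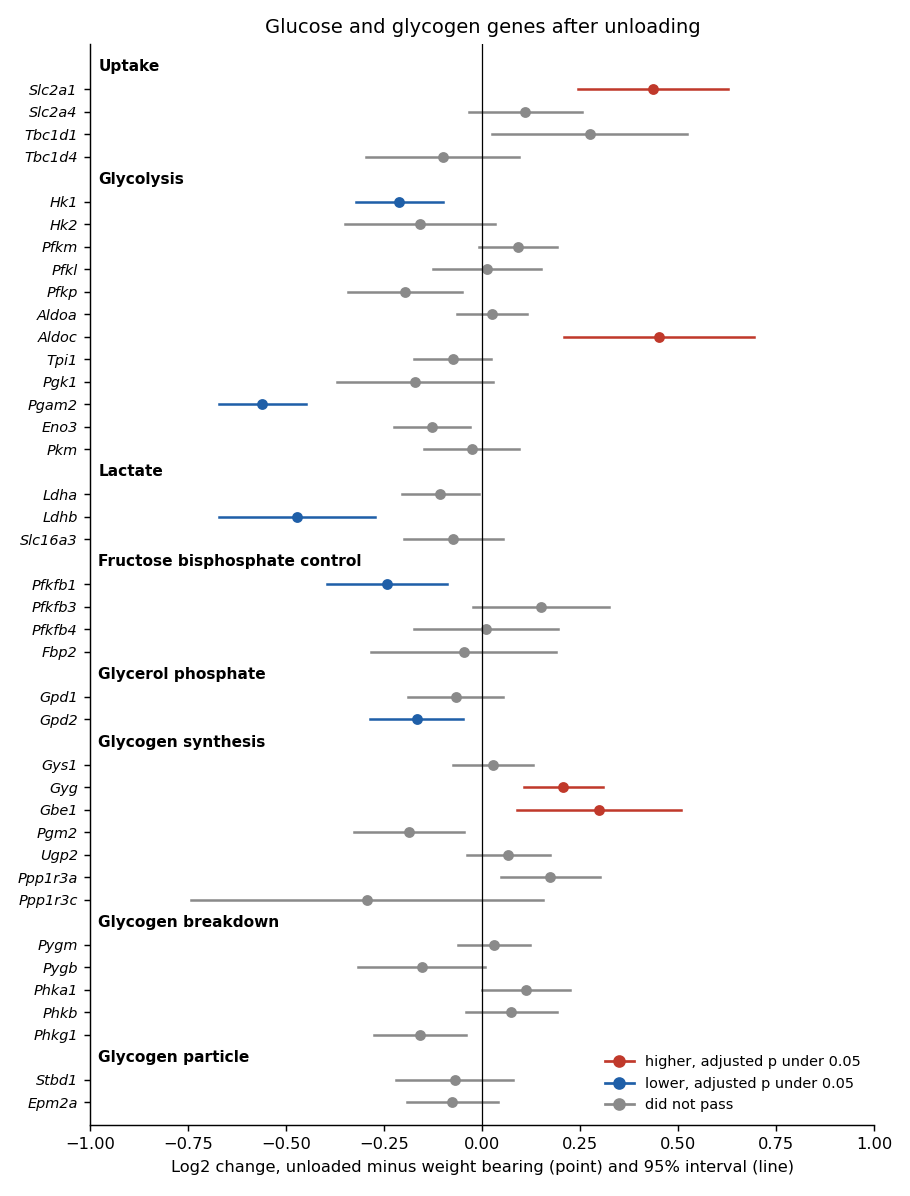
Change on the log2 scale, unloaded against weight bearing, for each of the 39 genes with its 95% confidence interval from limma, grouped by step, with genes that passed the test coloured by direction. The genes that rose belong to uptake, glycolysis (Aldoc) and glycogen synthesis, those that fell lie from hexokinase to the glycerol phosphate shuttle, and the intervals of most other genes cross 0.

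At the step of uptake 1 of 4 genes changed. Slc2a1, the basal transporter GLUT1, measured 8.54, 8.49, 8.72 and 8.55 in unloaded replicates 1 to 4 and 8.02, 8.16, 7.99 and 8.38 in weight bearing replicates 1 to 4. Every unloaded array was above every weight bearing array, and the rise was 1.35-fold (log2 change 0.44 ± 0.086 SE, adjusted p = 0.00546). It missed the threshold with the methods' t-test (adjusted p = 0.0568). GLUT1 is also carried by endothelial and perineurial cells, whose marker sums were lower in the unloaded arrays for the first and overlapped for the second. Slc2a4, the insulin-responsive transporter GLUT4, measured 11.21, 11.24, 11.32 and 11.12 against 11.04, 11.02, 11.21 and 11.19. Those groups overlapped, and its change of 0.11 had a 95% interval from -0.03 to 0.25 (adjusted p = 0.238). Tbc1d1 and Tbc1d4, the brakes on GLUT4 movement, gave 0.27 (adjusted p = 0.103) and -0.10 (0.426). The Tbc1d1 value turned on a single array: weight bearing replicate 3 stood at 9.41 while the other weight bearing arrays ran from 8.89 to 8.98, and without it the change was 0.39 with an adjusted p of 0.00639.

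In glycolysis 1 of 12 genes was higher and 2 were lower, with a median log2 change of -0.10, and the largest fall of the whole list lay here. Pgam2, the muscle form of phosphoglycerate mutase, which moves the phosphate of 3-phosphoglycerate one carbon along, measured 11.48, 11.50, 11.59 and 11.47 in unloaded arrays. The weight bearing arrays stood at 12.08, 12.05, 12.15 and 12.02, well apart from them. The fall was 1.48-fold (log2 change -0.56 ± 0.050 SE, adjusted p = 6.26e-05) and passed under all 19 alternatives tried. Hk1, the widely expressed hexokinase, measured 6.72, 6.74, 6.80 and 6.65 against 6.97, 6.96, 6.95 and 6.87. It was 1.16-fold lower with no overlap (adjusted p = 0.0129). Hk2, the hexokinase typical of insulin-sensitive muscle, ran from 9.61 to 9.73 in unloaded and from 9.62 to 10.01 in weight bearing arrays, and its change of -0.16 did not pass (adjusted p = 0.202).

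Aldolase, which splits fructose 1,6-bisphosphate, was represented by its muscle form Aldoa and by Aldoc, a form best known from brain. Aldoc was dim, at 5.42, 5.68, 5.64 and 5.42 in unloaded and 5.11, 4.85, 5.02 and 5.39 in weight bearing arrays. The nearest values of the groups, 5.42 and 5.39, almost met, and the rise was 1.37-fold (log2 change 0.45 ± 0.11 SE, adjusted p = 0.0145 in limma and 0.0900 with the methods' t-test). Of the 3 phosphofructokinase subunits none passed: Pfkm, the muscle subunit, changed by 0.09, Pfkl by 0.01 and Pfkp by -0.20. Pfkp, at an adjusted p of 0.0527, had groups that did not overlap (6.16 to 6.37 against 6.40 to 6.61), and without weight bearing replicate 3 its adjusted p was 0.0432. Tpi1, triosephosphate isomerase, gave -0.08 (adjusted p = 0.235), Pgk1, phosphoglycerate kinase, -0.17 (0.191), and Pkm, pyruvate kinase, gave -0.03 (0.741). Gapdh and Pgam1 are not analysed here.

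Lactate genes all had values below those of weight bearing muscle on average, and 1 of 3 passed. Ldhb, the heart-type subunit of lactate dehydrogenase that is richest in slow and oxidative fibres, measured 9.51, 9.65, 9.38 and 9.66 in unloaded arrays and 10.00, 9.80, 10.13 and 10.16 in weight bearing arrays. The groups lay apart, the fall was 1.39-fold (log2 change -0.47 ± 0.089 SE, adjusted p = 0.00427), and it too passed under all 19 alternatives. The slow fibre markers fell with it, 5 of 10, and their part in it was not tested. Ldha, the muscle-type subunit, measured 12.87, 12.85, 12.92 and 12.86 against 12.99, 12.93, 12.99 and 13.02, groups that did not overlap but differed by only -0.11 (adjusted p = 0.107). Slc16a3, the lactate exporter MCT4 of fast fibres, changed by -0.07 (adjusted p = 0.369).

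Among the enzymes that make or remove fructose bisphosphates, 1 of 4 was lower. Pfkfb1, a bifunctional enzyme that sets fructose 2,6-bisphosphate, the activator of phosphofructokinase, measured 9.70, 9.71, 9.79 and 9.52 against 9.94, 9.80, 10.02 and 9.93. It was 1.18-fold lower without overlap (adjusted p = 0.0279). That call was lost when unloaded replicate 2 or 4 or weight bearing replicate 1, 3 or 4 was left out, at adjusted p-values of 0.0538, 0.0662, 0.0646, 0.0696 and 0.0567. It was also lost with the methods' t-test (0.0833), the equal-variance t-test (0.0678) and a minimum change of 1.2-fold. Pfkfb3, the form with the strongest kinase activity, gave 0.15 (adjusted p = 0.191), Pfkfb4 0.0099 (0.941) and Fbp2, the muscle fructose bisphosphatase, -0.05 (0.768). Of the glycerol phosphate shuttle, which passes cytosolic reducing power to mitochondria, the mitochondrial enzyme Gpd2 was lower and the cytosolic Gpd1 gave -0.07 (adjusted p = 0.387). Gpd2 measured 10.70, 10.75, 10.73 and 10.74 against 10.83, 10.81, 10.96 and 10.99, a 1.12-fold fall with an adjusted p of 0.0449. Its call was the least steady of the 9, since it was lost under 13 of the 19 alternatives, including every single array left out except weight bearing replicate 2 (adjusted p from 0.0524 to 0.104).

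**Figure D3:**
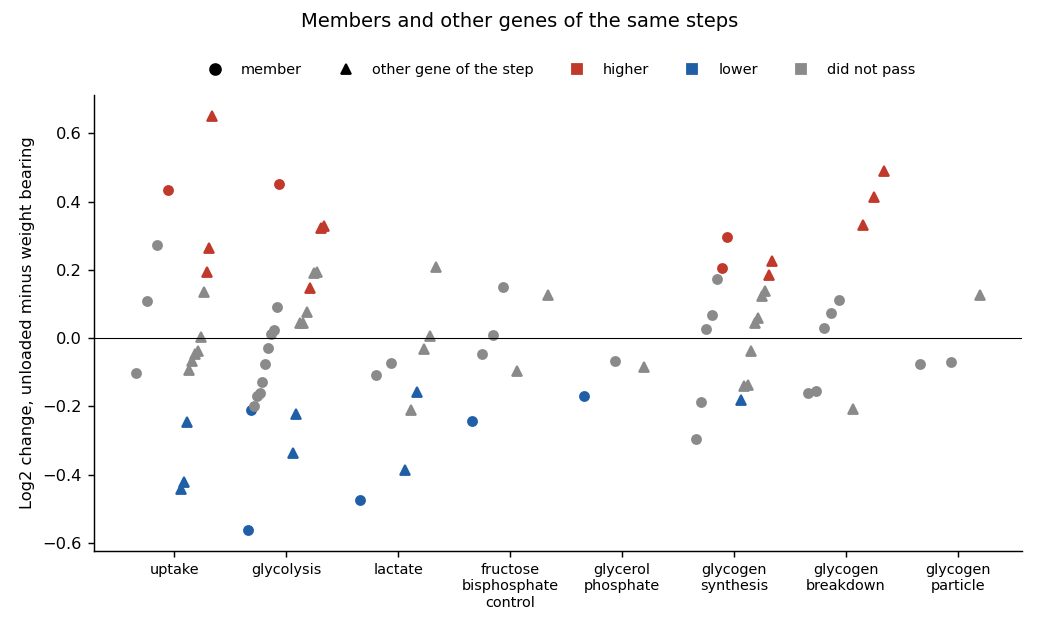
Log2 change of every gene in each of the 8 steps, with 1 point per gene in order of change, circles for the 39 genes and triangles for the 46 other measured genes of the same steps, coloured by whether they passed as higher or lower. In glycogen breakdown the 5 listed genes sit between -0.16 and 0.11, while 3 of the 4 other genes lie between 0.33 and 0.49.

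Glycogen synthesis held 2 genes that were higher and none that was lower, out of 7, with Pgm2 read by its current symbol. Gyg, glycogenin, the protein that primes each new glycogen particle, measured 11.79, 11.78, 11.76 and 11.77 in unloaded arrays and 11.49, 11.58, 11.60 and 11.60 in weight bearing arrays. The unloaded values were all above the others and nearly equal, and the rise was 1.15-fold (log2 change 0.21 ± 0.045 SE, adjusted p = 0.00886). Gbe1, the branching enzyme, measured 9.92, 9.88, 9.49 and 9.77 against 9.43, 9.33, 9.52 and 9.58, a 1.23-fold rise (adjusted p = 0.0443). Those groups overlapped at unloaded replicate 3, and the call was lost in turn without unloaded replicate 1, 2 or 4 or weight bearing replicate 1, 2 or 3 (adjusted p from 0.0661 to 0.114) and with the methods' t-test (0.150).

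Gys1, the muscle glycogen synthase itself, ran from 11.31 to 11.38 in unloaded and from 11.26 to 11.37 in weight bearing arrays. Its change of 0.03 had a 95% interval from -0.07 to 0.13, so a change beyond 0.13 in either direction lay outside the interval. Ugp2, which makes the UDP-glucose that the synthase uses, gave 0.07 (adjusted p = 0.330). Ppp1r3a, the main muscle subunit that brings protein phosphatase 1 to glycogen, measured 11.29, 11.26, 11.33 and 11.18 against 11.04, 11.00, 11.18 and 11.15, without overlap, and missed the threshold narrowly (log2 change 0.17, adjusted p = 0.0506). It passed without unloaded replicate 4 (0.0485) or weight bearing replicate 3 (0.0412). Ppp1r3c, another such subunit, was the most variable gene of the list, with weight bearing values of 11.10, 11.07, 10.72 and 10.10 and unloaded values of 10.54, 10.37, 10.18 and 10.71. Its change of -0.29 did not pass (adjusted p = 0.311), and without weight bearing replicate 4 it was -0.51 with an adjusted p of 0.0258. Phosphoglucomutase, which connects glucose 1-phosphate and glucose 6-phosphate, has had its mouse symbols exchanged. The gene now called Pgm2 (formerly Pgm1) gave -0.19 (adjusted p = 0.0565, and 0.0440 without unloaded replicate 4), while the gene now called Pgm1 (formerly Pgm2) was lower by 0.18 (0.0269). Read by the older symbols, the Pgm2 of the list would be the gene now called Pgm1, and the step would hold a gene that was lower.

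Of the 5 listed genes of glycogen breakdown none passed in limma, with 1 at an unadjusted p under 0.05, 0 with the methods' t-test and 1 with an intensity trend and robust variance, a fit that called 24.7% of all probe sets. Pygm, the muscle phosphorylase, measured 12.94, 12.92, 12.95 and 12.92 against 12.88, 12.91, 12.91 and 12.92, a change of 0.03 with a 95% interval from -0.06 to 0.12. Pygb, the brain-type phosphorylase, gave -0.15 (adjusted p = 0.150). Phosphorylase kinase has a catalytic subunit and regulatory subunits, and its muscle catalytic subunit Phkg1 was the gene that passed with the intensity trend. Phkg1 measured 11.06, 11.03, 11.04 and 10.91 against 11.15, 11.10, 11.22 and 11.19, separate groups with a change of -0.16 (adjusted p = 0.0514 in limma and 0.0174 with the trend). The regulatory subunits Phka1 and Phkb gave 0.11 (adjusted p = 0.134) and 0.07 (0.318). Stbd1 and Epm2a, which tether glycogen to membranes and remove phosphate from it, gave -0.07 and -0.08, and 0 of the pair passed in limma, at an unadjusted p or with the methods' t-test.

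Other genes of the same steps, 48 by a pathway list of which 46 were measured, included 11 that were higher and 8 that were lower (41.3% against 23.8% of all probe sets), with a median log2 change of 0.04. Leaving out unloaded replicate 4 or weight bearing replicate 1 left 5 lower. The list of 48 was drawn up with earlier results of these data known, so its larger share is no independent support for a change in the pathway. The breakdown genes outside the list of 39 contrasted with those in it, since 3 of 4 were higher. Phkg2, the catalytic subunit of phosphorylase kinase best known from liver, measured 7.89, 7.77, 7.89 and 7.79 in unloaded and 7.32, 7.22, 7.31 and 7.51 in weight bearing arrays, a log2 change of 0.49 (adjusted p = 0.000703). Gaa, the lysosomal acid glucosidase that degrades glycogen inside lysosomes, measured 10.39, 10.44, 10.48 and 10.52 against 10.05, 10.02, 10.00 and 10.10, a change of 0.42 (adjusted p = 0.000304). Neither gene's groups overlapped. Phka2, a regulatory subunit best known from liver, was higher by 0.33 (adjusted p = 0.00386). Pygl, the liver phosphorylase, gave -0.21 and did not pass. The difference between these 4 genes and the 5 listed ones was not tested.

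The transporter family moved in both directions outside the list. Slc2a3, the high-affinity transporter GLUT3, measured 6.71, 6.59, 6.63 and 6.71 in unloaded and 6.07, 6.02, 6.00 and 5.96 in weight bearing arrays, the largest rise among the 46 genes (log2 change 0.65, adjusted p = 2.44e-05). Slc2a8 (0.19) and Aspscr1, also called TUG, which holds GLUT4 vesicles inside the cell (0.26), were higher. Slc2a10 (-0.44), Slc2a12 (-0.42) and Snap23, which takes part in the fusion of GLUT4 vesicles (-0.25), were lower. In glycolysis Hkdc1 (0.33), Gpi1, glucose phosphate isomerase (0.15), and Tigar, which degrades fructose 2,6-bisphosphate (0.32), were higher, while Eno1, the enolase outside differentiated muscle (-0.34), and Bpgm (-0.22) were lower. Ldhd (-0.39) and the lactate carrier Slc16a1, MCT1 (-0.16), were lower among the lactate genes. For glycogen synthesis, Gsk3b, the kinase that inhibits glycogen synthase, was higher by 0.23 and Ppp1r3f by 0.19. The highest adjusted p among these genes in limma was that of Bpgm, 0.0366. Hkdc1, Slc2a10 and Ppp1r3f were dim, with mean levels of 5.22, 5.87 and 5.69. With the methods' t-test Slc2a8, Slc2a10, Aspscr1, Hkdc1, Tigar, Eno1, Bpgm and Slc16a1 lost their call (adjusted p from 0.0502 to 0.122). Of the 19 genes outside the list that passed, 5 (Slc2a8, Gpi1, Bpgm, Slc16a1 and Pgm1) lost their call when one or another array was left out, at adjusted p-values from 0.0505 to 0.0935, and 14 kept it without each array.

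**Figure D4:**
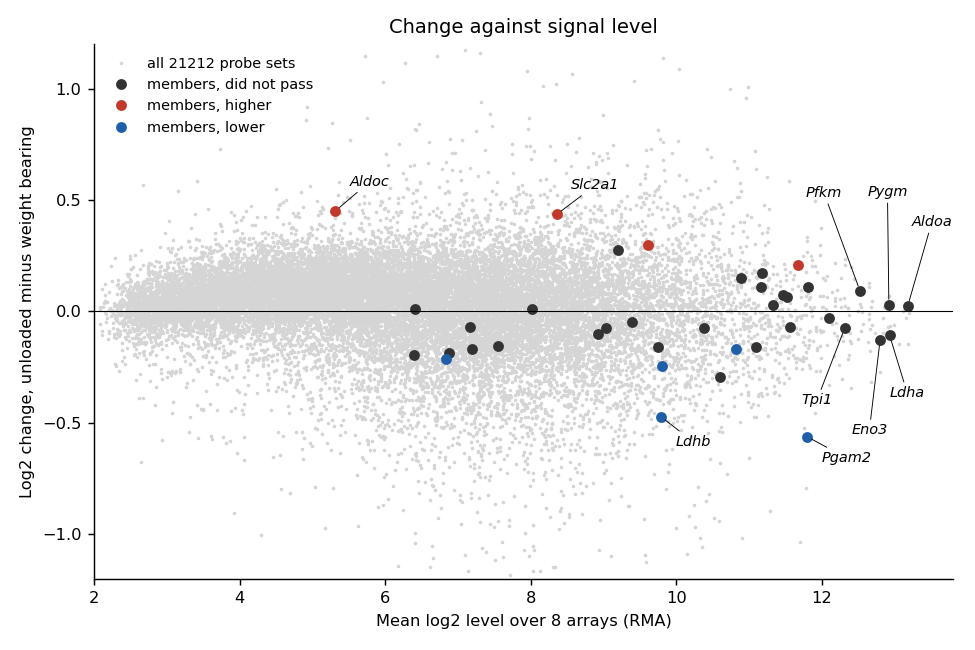
Mean log2 RMA level over the 8 arrays (x) against log2 change, unloaded minus weight bearing (y), for all probe sets in grey, of which 39 lie beyond the plotted range of ±1.2, and for the 39 genes in colour by call. The 6 genes at the right end, from Tpi1 to Aldoa, have changes between -0.13 and 0.09, and Pgam2 lies just below their level with -0.56.

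Several of these genes were among the brightest probe sets of the arrays. Of the 39, 12 had a mean level above the 99th percentile, and 6 (Aldoa, Ldha, Pygm, Eno3, Pfkm and Tpi1) lay within 1 log2 unit of the highest probe set on every array, as did 52 probe sets in all. Aldoa was the third brightest of 21212, between 0.0004 and 0.11 below the maximum. Hybridisation signal flattens near its upper end, so that such a probe set can understate a change, and whether it did so here was not tested. Of the 12 brightest genes 1 was higher (Gyg) and 1 lower (Pgam2), 16.7% against 37.6% of the 213 probe sets above that percentile. The maximum itself ran from 13.18 to 13.21 in unloaded and from 13.23 to 13.27 in weight bearing arrays.

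None of the 6 genes nearest the maximum passed in limma, against 2 at an unadjusted p under 0.05, 2 with the methods' t-test and 3 with the intensity trend, although 5 of the 6 had groups that did not overlap. Their replicates were close: the pooled SD of Aldoa over its groups was 0.0092, against a median of 0.092 over all probe sets and 0.047 over those above the 99th percentile. Aldoa measured 13.18, 13.19, 13.20 and 13.18 in unloaded and 13.15, 13.16, 13.18 and 13.17 in weight bearing arrays. That separation amounted to 0.02 on the log2 scale, a 1.02-fold difference, with a standard error of 0.0065 from its own arrays and 0.041 in limma, which draws each variance toward that of all probe sets. Eno3, the muscle enolase, measured 12.73, 12.74, 12.77 and 12.70 against 12.85, 12.86, 12.91 and 12.83. Its change of -0.13 had adjusted p-values of 0.0560 in limma, 0.0204 with the methods' t-test and 0.00632 with the trend, and after quantile normalization it was -0.05 (0.482). Ldha passed with the t-test (0.0435) and the trend (0.0199), and quantile normalization likewise brought it to -0.05. Pfkm, at 12.54, 12.56, 12.62 and 12.55 against 12.46, 12.46, 12.47 and 12.52, passed with the trend (0.0474) and after quantile normalization, where its change was 0.15 rather than 0.09 (0.0346). The calls of Eno3 and Ldha thus differed between tests, and that of Pfkm between the variance models of limma and between scalings.

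**Figure D5:**
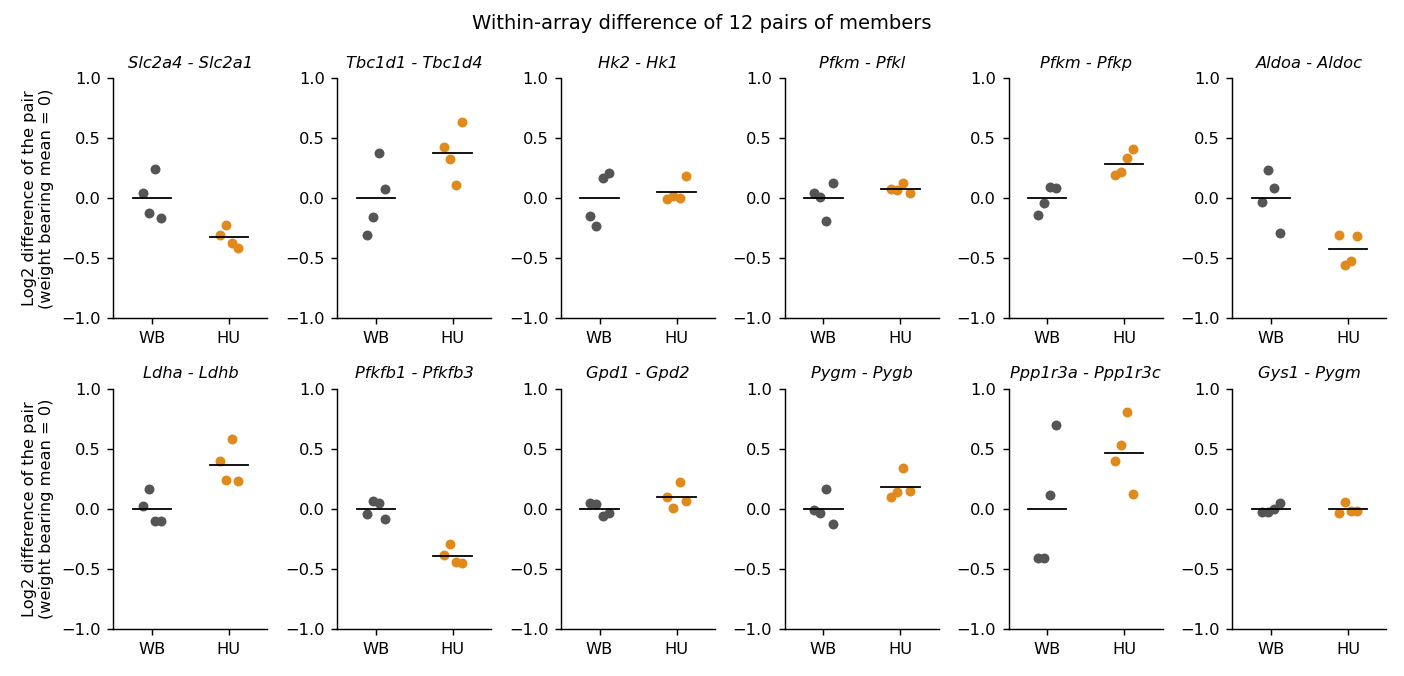
Within-array log2 difference of each of 12 pairs of genes, first minus second, shown as the deviation from the weight bearing mean, with 1 point per array and a bar at each mean (WB, weight bearing; HU, hind limb unloaded). In 5 pairs the 4 unloaded and 4 weight bearing arrays do not overlap, with differences between groups from -0.43 to 0.37.

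Genes that do the same step, or opposing ones, were compared within each array in 12 pairs, by an exact two-sided permutation test over the 70 ways of dividing 8 arrays into 4 and 4. The smallest p this design allows is 0.0286, and 5 pairs reached it, each with groups that did not overlap. After Benjamini-Hochberg adjustment over the pairs 0 of 12 were past the threshold (adjusted p = 0.0686 for each of the 5). Most of the 12 pairs would have had to reach the smallest p for any to pass, so that 0 says little about a single pair. The value given is the change of the first gene minus that of the second. It was -0.33 for Slc2a4 against Slc2a1, the insulin-responsive and the basal transporter, with within-array differences of 2.56 to 2.75 in unloaded and 2.81 to 3.22 in weight bearing arrays. For the aldolases, Aldoa against Aldoc, it was -0.43, and for Pfkfb1 against Pfkfb3 -0.39. It was positive for Ldha against Ldhb (0.37), where the within-array difference ran from 3.19 to 3.54 in unloaded and from 2.86 to 3.12 in weight bearing arrays, and for Pfkm against Pfkp (0.29). With limma on the pair differences, where the variance is pooled over these 12 pairs alone, all 5 passed (adjusted p from 0.00184 to 0.0203). The pairs were chosen with earlier results of these data known, and Slc2a1, Aldoc, Ldhb and Pfkfb1 had passed as single genes. The limma result is therefore no independent support for a difference within these pairs.

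The remaining 7 pairs did not reach that p, and their groups overlapped. Tbc1d1 against Tbc1d4 gave a difference of 0.37 (exact p = 0.114) and Ppp1r3a against Ppp1r3c 0.47 (exact p = 0.171), both with wide spread between arrays. Hk2 against Hk1 gave 0.05 (exact p = 0.686), Gpd1 against Gpd2 0.10 (exact p = 0.114), Pygm against Pygb 0.18 (exact p = 0.114) and Pfkm against Pfkl 0.08 (exact p = 0.343). The synthase and the phosphorylase of muscle glycogen, Gys1 and Pygm, kept almost the same difference in both groups, from -1.63 to -1.54 in unloaded and from -1.62 to -1.54 in weight bearing arrays, a change of -0.0018 (exact p = 0.943).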

How the data were processed

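Total RNA of gastrocnemius and plantaris from 4 unloaded and 4 weight bearing mice was hybridised by the authors to Affymetrix Mouse Gene 1.0 ST arrays, and the deposited log2 values came from RMA run on all arrays with a custom definition of the probe sets. The sources used here give neither its release nor the RMA version or genome build, and no coordinates of probe sets are printed. No scan date or batch was used. The number of arrays limits the precision.

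Probe sets were named from the platform annotation and, where it lists none, by the Entrez number in the row name (1917 of 2420 such rows, 503 left unnamed), through the RefSeq table. Values were used as deposited, with no filter, and 0 sample columns were left out. Groups were compared with limma 3.58.1 (lmFit, eBayes, two-sided) in R 4.3.3, adjusted by Benjamini-Hochberg over 21212 rows, with an adjusted p under 0.05 called. Exact permutation tests, promoter searches and figures used Python 3.11.15, numpy 2.4.6, scipy 1.17.1, pandas 2.3.3 and matplotlib 3.10.9. Fits were tested on simulated data. Some other genes of the pathway are not reported here. The genes, steps, pairs and marker lists were chosen with earlier results of these data known. All 39 genes are named; of other pathway genes, up to 8 with the largest change and each where a count was 5 or fewer; of markers, those called. The 19 alternatives were the methods' t-test (unequal variances), an equal-variance t-test, limma with an intensity trend and robust variance or with array weights, an unadjusted p, a minimum of 1.2-fold, no dimmest 25% or 50% of rows, quantile normalization, array medians set to 0, a replicate block and each array left out in turn; pairs also had limma.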

Additional observations from a re-analysis of the deposited data

Results flagged for a closer look

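In 3 of the 78 groups of 4 arrays examined (39 genes, 2 conditions) a single array stood far from the other members of its group, with a gap that took up more of the group's range than the 95% critical value of Dixon's test for 4 values. Chance alone marks about 1 group in 20, so 3 of 78 is no excess. For Tbc1d1, weight bearing replicate 3 stood at 9.413 where the others ran from 8.895 to 8.978. For Hk1, weight bearing replicate 4 stood at 6.87 where the others ran from 6.955 to 6.969, on the side of the unloaded arrays. For Gyg, weight bearing replicate 1 stood at 11.49 where the others ran from 11.58 to 11.60, away from the unloaded arrays. The calls of Hk1 and Gyg stood without the array concerned, and that of Tbc1d1 was gained.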

How the results depend on the processing

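Pgam2 and Ldhb passed under all 19 alternatives. Gyg and Hk1 lost their call with a minimum change of 1.2-fold alone, Slc2a1 with the methods' t-test alone and Aldoc with both t-tests. Genes of the list called lower numbered 8 with the intensity trend, 10 at an unadjusted p, 2 with a minimum of 1.2-fold, and 9 and 10 without the dimmest 25% and 50% of rows, while those called higher numbered 1 with the methods' t-test, 6 with the intensity trend, 6 at an unadjusted p and 6 after quantile normalization. Leaving out single arrays gave 3 to 5 higher and 3 to 5 lower. Other pathway genes numbered 7 higher and 4 lower with a minimum of 1.2-fold and 7 higher and 4 lower with the methods' t-test, and with single arrays left out 9 to 14 higher and 5 to 7 lower. The median change of -0.068 became -0.025 after quantile normalization and ran from -0.069 to -0.033 with single arrays left out, where unloaded replicates 2 (-0.045) and 4 (-0.033) and weight bearing replicate 1 (-0.040) moved it most. Pairs past the threshold went from 0 to 5 with limma. They stayed at 0 with single arrays left out, but there too most pairs would have had to reach the smallest p for any to pass. That 0 therefore says little about how steady the pairs were.

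Whether equal replicate numbers marked pairs was not settled. The deviations of same-numbered arrays correlated at 0.024, 0.037, 0.120 and 0.095, and those of other combinations from -0.138 to 0.102. Unloaded replicates 2, 3 and 4 each correlated best with their own number, replicate 2 by little (0.037 against 0.036 with weight bearing replicate 1). Unloaded replicate 1 correlated better with weight bearing replicate 3 (0.102) than with its own number. With the replicate number as a block, 3 genes of the list were higher and 5 lower, Gbe1 (0.0691) and Gpd2 (0.0655) were lost and Pfkp (0.0440) was gained, other pathway genes were 9 higher and 7 lower, and 2 pairs passed.

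Signs turned only in genes and pairs that were not called. After quantile normalization this was Pkm (0.000201), with array weights Pfkfb4 (-0.00523) and Vamp2 (-0.00445), and with array medians at 0 Vamp2 (-0.00306). With single arrays left out, the change ran from -0.0155 to 0.0717 for Pfkl, from -0.0686 to 0.000542 for Pkm, from -0.0576 to 0.0611 for Pfkfb4 and from -0.121 to 0.0455 for Fbp2. Outside the list it ran from -0.0424 to 0.0302 for Vamp2 and from -0.0103 to 0.0331 for Bsg. Among pairs the difference ran from -0.0261 to 0.123 for Hk2 and Hk1 and from -0.0207 to 0.0149 for Gys1 and Pygm. The causes were not tested.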
